A study of Mus musculus with 8 samples.

Results

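The locus examined here is a 300-kb stretch of mouse chromosome 8 (mm9, 108900001 to 109200000) that holds *Zfp90*, *Cdh3* and *Cdh1*. Its limits were set by position, around a domain that the study had boxed. The locus comprises 150 of the 1319482 windows of 2 kb into which chromosomes 1 to 19 and X were divided. Inside it lies a 69-kb box (108962001 to 109031000) that the study drew for *Cdh3*, which leaves 62 kb to the left of the box and 169 kb to the right. The box was picked by the study to show a fall of H3K9me3 in these libraries, so its own fall is a description and not independent evidence. Tags were counted across the locus to find where H3K9me3 peaks lay, which of them fell 2, 4 or 6 days after *Setdb1* was deleted, and which stayed.

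All libraries came from JM8 mouse ES cells of the C57BL/6N strain, in which 1 *Setdb1* allele is constitutively disrupted (*tm2*) and the other is conditional. Cells at *T* = 0 were untreated (*tm1c/tm2*). A 48 h exposure to 0.8 µM 4′OHT, which activates a CreERT2 recombinase expressed from *Rosa26*, then converted the conditional allele to a null allele (*tm1d/tm2*), and cells were collected on day 2 (*T* = 2d), day 4 (*T* = 4d) and day 6 (*T* = 6d). The sample labels call the same genotypes *tm1a/tm2* and *tm1c/tm2*. The *tm2* allele lacks an exon, and a truncated Setdb1 product is made from it. The Upstate-type antibody was used at all 4 times, and lots 58206 and 638466 of an Abcam antibody at *T* = 0 and *T* = 6d, which makes 8 libraries, 1 for each antibody and time. Fisher's exact test therefore compared libraries and not conditions, the antibodies are no biological replicates, and the 3 comparisons of the time course share their *T* = 0 library. Control ES cells and input libraries were not analysed here, and no expression was measured in these libraries, so the ES cell label could not be checked against marker genes.

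Setdb1 is a methyltransferase that places H3K9me3, a mark of silent chromatin, and it is brought to its targets by KRAB zinc finger proteins through the corepressor Trim28. *Zfp90* codes for such a KRAB zinc finger protein. *Cdh3* codes for P-cadherin, an adhesion molecule of placenta and epithelia, and *Cdh1* for E-cadherin, which holds ES cells together in colonies. RefSeq (GRCm38.p6) lists them along the chromosome in the order *Zfp90*, *Cdh3*, *Cdh1*, followed by *Tango6*, with the lncRNA *Gm51545* between *Zfp90* and *Cdh3*, and *Gm10073*, *1110028F18Rik* and *Gm39239* between *Cdh3* and *Cdh1*. Gene limits in mm9 were not used here, so peaks are described by position and are not assigned to a gene.

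The libraries held 6887819 tags each for the Upstate-type antibody, 8503927 each for lot 58206 and 12194174 each for lot 638466, and 2-kb windows averaged 5.52, 6.82 and 9.77 tags respectively. Most of the locus was covered. A stretch of 13.6 kb inside the box (109003563 to 109017189) had no tag midpoint in any library, and it was the only such stretch of 1 kb or more. Sites there were not detectable with these tags. Intervals given for tag numbers and ratios are 95% intervals that cover counting error only.

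Windows with many H3K9me3 tags were more frequent here than over the genome, and they were unevenly placed. The locus was drawn around a domain that the study picked, so its share of such windows is a description. Peaks were runs of 2-kb windows in which the tags of all 8 libraries together reached at least 2 times the genome median of 50. In the locus, 67 of 144 windows with tags reached this limit (46.5%), against 7.18% over the genome. They were 6 of 31 windows to the left of the box, 4 of 29 in the box, the last of which crosses its right end, and 57 of 84 to the right. These windows formed 6 peaks. Peak 1 lay to the left of the box (108940001 to 108952000, 12 kb). Narrow peaks of 2 kb lay inside the box, namely peak 2 (108964001 to 108966000) near the left end, peak 3 (109000001 to 109002000) to the left of the stretch without tags, and peak 4 (109022001 to 109024000) to the right of that stretch. Peak 5 (109030001 to 109082000, 52 kb) began at the right end of the box. Peak 6 (109126001 to 109198000, 72 kb) lay farthest right, and segments with few tags separated it from peak 5. In these the Upstate-type antibody held between 19 and 26 tags per 10 kb at *T* = 0 (109090001 to 109120000), against 335 in the segment with most tags. The pooled tags include 4 libraries of this antibody. Relative to the library mean, its levels in peaks 1, 5 and 6 at *T* = 0 were above those of either Abcam lot. In peak 6 they were 5.62 times the mean, against 1.88 with lot 58206 and 1.82 with lot 638466.

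**Figure D1:**
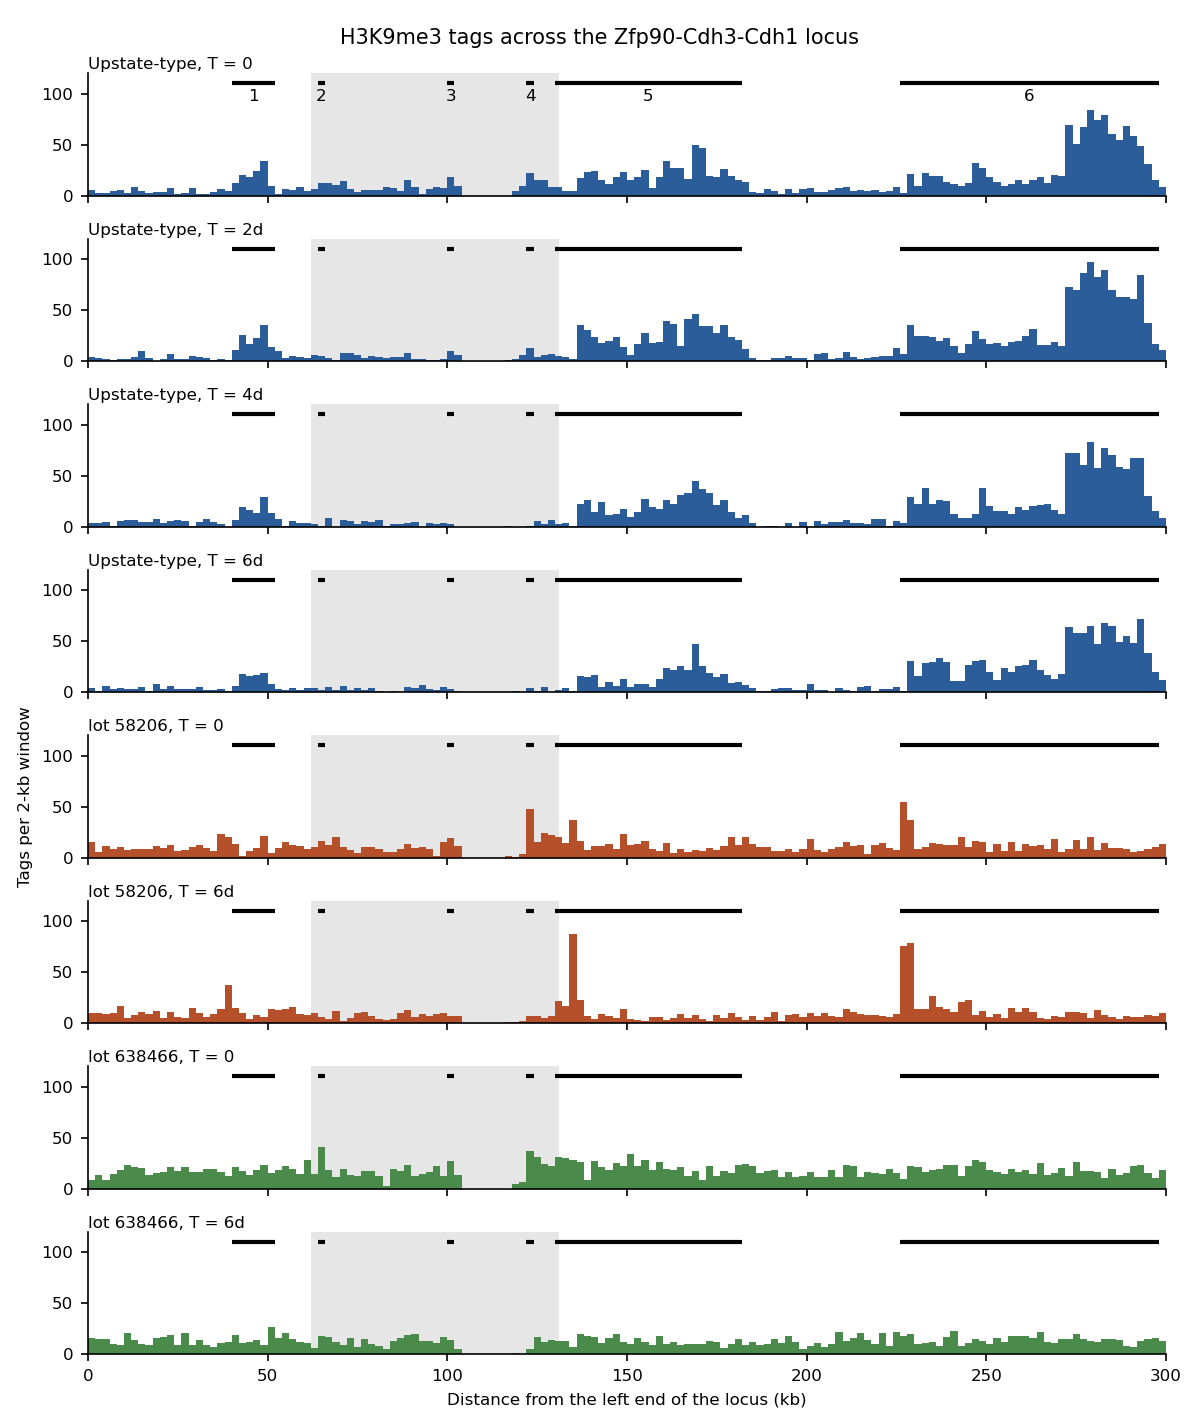
Tags per 2-kb window in each of the 8 libraries against the distance from the left end of the locus in kb, with the 69-kb box shaded and peaks 1 to 6 drawn as black bars. Peaks 1, 5 and 6 are tall with the Upstate-type antibody at every time, while lot 58206 has narrow spikes at their left ends, of up to 87 tags per window.

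The 3 antibodies did not mark the same places. With the Upstate-type antibody the signal sat in 3 broad blocks. When peaks were chosen on its 4 libraries alone, 7 were found, of which 3 were at least 10 kb wide: block 1 (108940001 to 108952000), block 2 (109036001 to 109084000) and block 3 (109124001 to 109200000). At *T* = 0 they held 3.53, 3.96 and 5.40 times the library's mean number of tags per 2 kb. The same blocks held 1.34, 1.63 and 1.86 times the mean with lot 58206 and 1.82, 2.06 and 1.82 times with lot 638466. The contrast was widest in the right part of block 3, where the segment from 109180001 to 109190000 held 335 tags with the Upstate-type antibody at *T* = 0, 47 with lot 58206 and 73 with lot 638466. Across the 115 windows with tags outside the box, *T* = 0 levels of the Upstate-type antibody and lot 58206 had a Pearson's r of -0.03, and the same antibody and lot 638466 one of 0.02. Across the 29 windows with tags in the box these values were 0.71 and 0.67. Neighbouring windows and windows of low coverage are not independent, so these correlations are descriptions.

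The box lost tags at the first time point and again by *T* = 4d, while neither part beside it fell by 1.5-fold with the Upstate-type antibody. Tags in the box numbered 247, 133, 78 and 76 at *T* = 0, 2d, 4d and 6d with that antibody, and 1.30 times the library mean became 0.399 times. To the left of the box they numbered 213, 211, 195 and 168, and to the right 1756, 2077, 1807 and 1659. The left part fell by *T* = 6d to a ratio of 0.789 (0.640 to 0.970, adjusted *P* = 0.0401 over the 15 comparisons of parts with *T* = 0), short of a 1.5-fold change. The right part had a ratio of 1.18 at *T* = 2d (1.11 to 1.26, adjusted *P* = 4.95e-07) and of 0.945 at *T* = 6d (0.882 to 1.01, adjusted *P* = 0.151). At *T* = 2d the median ratio over all peaks of the genome was itself above 1, at 1.06.

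With lot 58206, too, the box had the lowest ratio at *T* = 6d. Tags went from 334 to 196 in the box, a ratio of 0.587 (0.489 to 0.702), from 315 to 336 in the left part (1.07, 0.912 to 1.25) and from 1003 to 959 in the right part (0.956, 0.874 to 1.05). With lot 638466 the box went from 491 to 318 (0.648, 0.560 to 0.747), and both other parts fell as well, from 534 to 430 (0.805, adjusted *P* = 0.00169) and from 1541 to 1133 (0.735, adjusted *P* = 1.56e-14). Over all peaks of the genome the median ratio with lot 638466 was 0.794, against 1 with lot 58206 and 0.895 with the Upstate-type antibody at *T* = 6d.

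**Figure D2:**
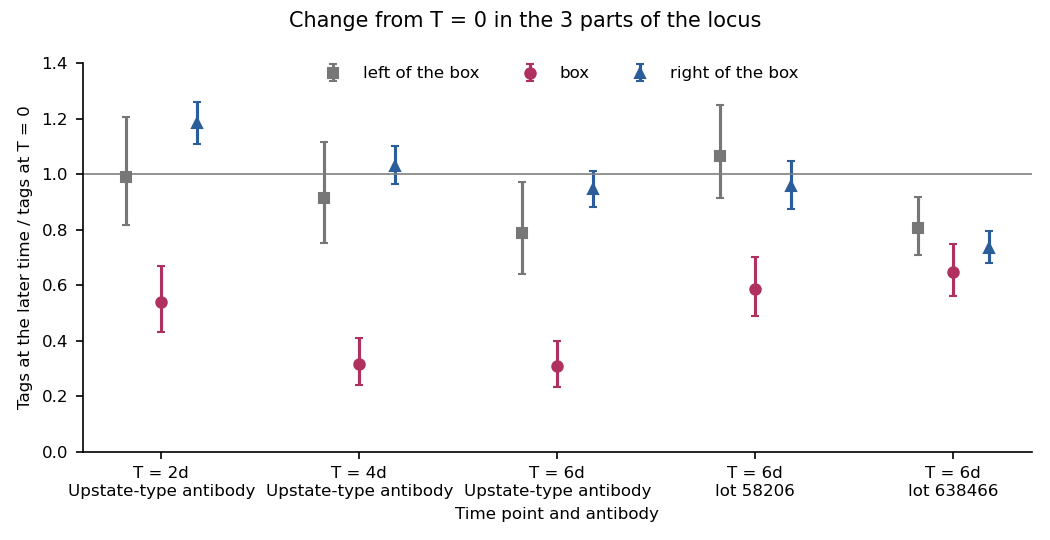
Ratio of tags at the later time to tags at *T* = 0 in the 3 parts of the locus for each of the 5 comparisons, with exact 95% intervals for counting error and a line at 1. The box is the lowest point in every comparison, and its interval lies apart from those of both other parts at each time of the Upstate-type antibody and with lot 58206.

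With the Upstate-type antibody the fall was spread over most of the length of the box. Of its 29 windows with tags, 22 had fewer tags than at *T* = 0 by day 2 with the Upstate-type antibody, 26 by day 4 and 26 by day 6 (75.9%, 89.7% and 89.7%, against 44.8%, 41.9% and 42.0% of all windows of the genome). With lot 58206 there were 21 such windows (72.4%, genome 45.9%) and with lot 638466 there were 23 (79.3%, genome 43.1%). These counts do not weigh the size of the fall, which was smaller in the middle of the box with the Abcam lots. The 10-kb segments from 108970001, 108980001 and 108990001 went from 41 to 35, 39 to 34 and 44 to 41 tags with lot 58206. With lot 638466 they went from 78 to 57, 74 to 61 and 76 to 74. The segment from 109020001 went from 112 to 28 and from 120 to 48 with these lots. To the right of the box the shares at *T* = 6d were 59.5%, 53.6% and 73.8% of 84 windows, in the order Upstate-type antibody, lot 58206, lot 638466, and to the left 64.5%, 45.2% and 74.2% of 31 windows. With lot 638466 the shares of all 3 parts were close to each other. Neighbouring windows share the same libraries and are not independent, so these are counts with no test.

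The 10-kb segment from 109020001, at the right of the stretch without tags, held the most tags of any segment of the box at *T* = 0 with each of the 3 antibodies (69, 112 and 120). Right of peak 4, the window from 109024001 held 15, 4, 5 and 1 tags over the time course, 15 and 7 with lot 58206, and 31 and 17 with lot 638466. The next one, from 109026001, held 15, 6, 2 and 5, then 24 and 5, and 24 and 12. Both were lower at every later time with every antibody, without reaching the limit for a peak. Near the left end of the box the window from 108968001 held 10, 1, 0 and 2 tags with the Upstate-type antibody and went from 20 to 12 with lot 58206, but from 11 to 12 with lot 638466. In the middle, the window from 108988001 held 15, 8, 3 and 5 with the Upstate-type antibody, while lot 58206 had 13 at both times and lot 638466 had 23 and 19. The antibodies thus had the same direction near peak 4 and not everywhere in the box.

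Set against its neighbours in the same libraries, the box had the lower ratio of each pair. Since the study picked the box for its fall, these values are given with no test. With the Upstate-type antibody the ratio in the left part was 1.84, 2.90 and 2.56 times that in the box on days 2, 4 and 6, while the ratio in the box was 0.455, 0.307 and 0.326 times that in the right part. With lot 58206 the left part's ratio was 1.82 times that of the box, and the box's ratio 0.614 times that of the right part. With lot 638466 these values were 1.24 and 0.881, so that the box stood least apart in that lot. Limited to windows that reached the limit, the last value became 0.497. The left and right parts, which were set by position, passed no test of their difference in any of the 5 comparisons (two-sided Fisher's exact test, adjusted over 15 differences between parts), with ratios of one to the other between 0.835 and 1.12.

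The narrow peaks in the box had fewer tags at *T* = 6d than at *T* = 0 with all 3 antibodies. They were over the limit mainly through the *T* = 0 libraries, which gave 69 of the 101 pooled tags of peak 2, 64 of the 100 of peak 3 and 107 of the 137 of peak 4. Their fall is therefore partly set by the choice of peaks, and the calls below describe these windows. Peak 2 held 12, 5, 1 and 2 tags at *T* = 0, 2d, 4d and 6d with the Upstate-type antibody. It went from 16 to 6 tags with lot 58206, while lot 638466 had 41 and 18. The fall passed *P* below 0.01 with a change over 1.5-fold at *T* = 4d (ratio 0.0833, 0.00195 to 0.563, exact *P* = 0.00342) and with lot 638466 (0.439, 0.237 to 0.781, *P* = 0.00379). Peak 3 held 18, 10, 2 and 3 tags over the time course, 19 and 7 with lot 58206, and 27 and 14 with lot 638466. It was called lower at *T* = 4d (ratio 0.111, 0.0125 to 0.464) and *T* = 6d (0.167, 0.0314 to 0.571, exact *P* = 0.00149), and neither Abcam lot passed alone.

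Peak 4, over the limit mainly through *T* = 0, had the deepest fall of the 6 with both Abcam lots. That choice favours a fall, so its rank and the *P* values below are descriptions. Peak 4 held 22, 13, 1 and 4 tags over the time course. Lot 58206 went from 48 to 7 and lot 638466 from 37 to 5. The ratios at *T* = 6d were 0.182 (0.0455 to 0.535, exact *P* = 5.34e-04), 0.146 (0.0557 to 0.324, *P* = 1.31e-08) and 0.135 (0.0415 to 0.345, *P* = 4.43e-07) in the order Upstate-type antibody, lot 58206, lot 638466. These 3 intervals overlap and are wide, so a difference between the antibodies in this window was not detectable at this depth.

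The wide peaks kept more of their tags, a contrast that is partly set by the choice of peaks. The *T* = 0 libraries gave 279 of the 734 pooled tags of peak 1, 1394 of the 3499 of peak 5 and 2220 of the 7024 of peak 6. These shares are smaller than in the narrow peaks. Peak 1 held 117, 126, 96 and 84 tags over the time course, 55 and 57 with lot 58206, and 107 and 92 with lot 638466, and no comparison passed. Its highest window (108948001 to 108950000) held 34, 35, 29 and 19 tags with the Upstate-type antibody, 21 and 6 with lot 58206, and 23 and 9 with lot 638466. That window was lower at *T* = 6d with every antibody, while the whole peak had a ratio of 1.04 with lot 58206 (0.703 to 1.53).

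Peak 5 held 528, 615, 514 and 366 tags over the time course. It held no fewer tags than at *T* = 0 beyond counting error until *T* = 4d (ratio 0.973, 0.860 to 1.10), and its ratio at *T* = 6d of 0.693 (0.605 to 0.794, exact *P* = 6.70e-08) was short of a 1.5-fold change. With lot 638466 it went from 548 to 329 and was called lower (0.600, 0.522 to 0.690, exact *P* = 1.37e-13), and with lot 58206 from 318 to 281 (0.884, 0.750 to 1.04). The spike of lot 58206 at its left end moved the other way, since the window from 109034001 to 109036000 went from 37 to 87 tags. Block 2, which starts just right of that window, went from 267 to 158 tags with lot 58206 and was called lower (0.592, exact *P* = 1.39e-07, adjusted *P* = 8.86e-06 over all peaks chosen on the Upstate-type libraries). The window of peak 5 with most tags over the 8 libraries (109068001 to 109070000) held 50, 46, 45 and 47 over the time course, 7 and 8 with lot 58206, and 17 and 10 with lot 638466. It was picked on tags pooled over all times, which favours a window that kept them.

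Peak 6 was called lower in no comparison. It held 1116, 1353, 1215 and 1213 tags over the time course, 462 and 511 with lot 58206, and 642 and 512 with lot 638466. The ratio of 1.21 at *T* = 2d (1.12 to 1.31, exact *P* = 2.00e-06) was a rise short of 1.5-fold, beside a median of 1.06 over all peaks of the genome. That of 0.798 at *T* = 6d with lot 638466 (0.709 to 0.897) was close to the median of 0.794 over all peaks in that lot. Its highest window (109178001 to 109180000) held 84, 97, 83 and 65 tags with the Upstate-type antibody, and 20 and 5 with lot 58206.

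**Figure D3:**
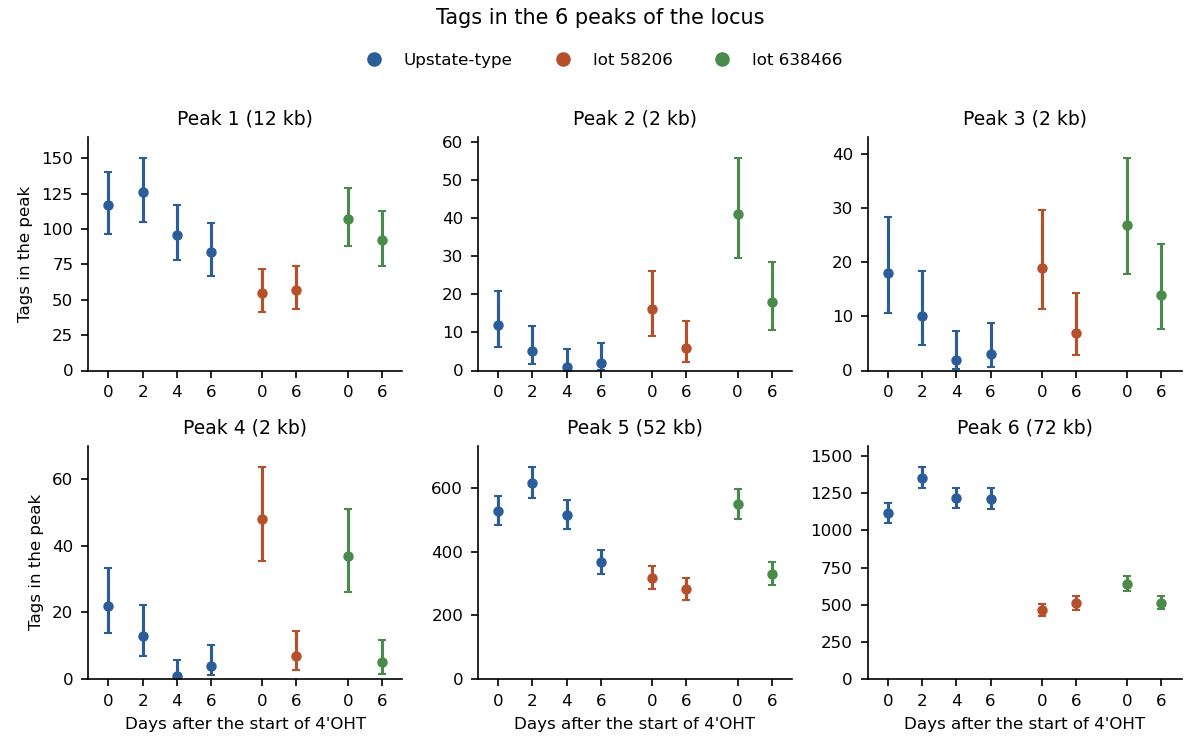
Tags in each of the 6 peaks (vertical axis, from 0, with its own scale for each peak) by day after the start of 4′OHT and antibody, with exact 95% Poisson intervals. Peaks 2, 3 and 4 drop to between 1 and 4 tags from *T* = 4d on with the Upstate-type antibody, peak 5 drops at *T* = 6d, and peak 6 does not drop with that antibody.

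By this rule 0 of the 6 peaks were lower at *T* = 2d, where 2.6% of the 20952 peaks of the genome were. Peaks 2, 3 and 4 were lower at *T* = 4d (10.2% over the genome) and peaks 3 and 4 at *T* = 6d (14.1%). With lot 58206 peak 4 was lower (10.1%), and with lot 638466 peaks 2, 4 and 5 were (11.9%). No peak was called higher. Over the genome, 639, 572 and 910 of the 20952 peaks were higher at *T* = 2d, 4d and 6d with the Upstate-type antibody. At *T* = 6d it was 3153 peaks with lot 58206 and 29 with lot 638466. Since 3 of the 6 passed the limit mainly through *T* = 0, these counts say little about the locus as a whole.

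Across the 3 antibodies, limma with the antibody as a term called peaks 2, 3 and 4 lower at *T* = 6d, where 9.07% of all peaks were called (adjusted *P* below 0.05 and over 1.5-fold). The antibodies are the only replication in this model, so its SE and *P* measure spread between antibodies and not between cultures. Changes are on log2 of tags per 1000000 deposited tags plus 0.5. They were -1.15 ± 0.38 (SE) for peak 2, -1.17 ± 0.37 for peak 3 and -1.98 ± 0.36 for peak 4. These 3 peaks were over the limit mainly through *T* = 0, which favours a fall, so their calls are descriptions. Peak 5 had -0.48 ± 0.17 (adjusted *P* = 0.0656), peak 1 -0.21 ± 0.27 and peak 6 -0.02 ± 0.13. With 6 libraries each antibody weighed on these calls, since leaving out the Upstate-type antibody left 1 of the 6 called, leaving out lot 58206 left 0 (4 at unadjusted *P* below 0.05) and leaving out lot 638466 left 1. Without the antibody term limma called 0 of the 6, with 2 at unadjusted *P* below 0.05.

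Each peak was then set against the 5 others in the same libraries (18 tests). The tags of the others are summed, so peaks 5 and 6 weigh most in them. Peaks 2, 3 and 4 were over the limit mainly through *T* = 0, which favours a low ratio. Their values here are therefore descriptions and are given with no *P*. With the 3 antibodies in the order Upstate-type, lot 58206, lot 638466, peak 4 had 0.195, 0.147 and 0.191 times the ratio of the others. Peak 6 had a higher ratio than the others with all 3, by 1.65, 1.41 and 1.32 times. The others include peaks 2, 3 and 4, whose choice lowers the summed ratio. The values of peak 6 are therefore also given with no *P*. In the same order peak 3 had 0.179, 0.384 and 0.746 times the ratio of the others, and peak 2 had 0.180, 0.392 and 0.628 times. Peak 5 had 0.682 times the summed ratio of the others with the Upstate-type antibody (adjusted *P* = 7.10e-06) and 0.800 times with lot 638466 (adjusted *P* = 0.0214). This is mainly a comparison with peak 6, which gave 1116 of the 1285 Upstate-type tags of the others at *T* = 0, and the ratios of peaks 2, 3 and 4 were below that of peak 5. Peak 1 passed with none, its values being 0.767, 1.10 and 1.27.

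Between the later time points the steps were as follows, with no test of one peak's step against another's. From *T* = 2d to *T* = 4d peak 4 went from 13 tags to 1 (ratio 0.0769, 0.00181 to 0.512, exact *P* = 0.00183), the only peak of the locus called lower at either step. Over the genome, 1274 of 20952 peaks were called lower at this step and 661 from *T* = 4d to *T* = 6d. Peak 5 went from 615 to 514 (0.836, 0.742 to 0.941, exact *P* = 0.00290) and peak 6 from 1353 to 1215 (0.898, 0.830 to 0.971, exact *P* = 0.00685), both short of 1.5-fold. From *T* = 4d to *T* = 6d peak 5 went from 514 to 366 (0.712, 0.621 to 0.816, exact *P* = 6.81e-07), again short of 1.5-fold, and peak 6 from 1215 to 1213 (0.998, 0.921 to 1.08). The box as a whole had ratios of 0.586 (0.437 to 0.781) and 0.974 (0.700 to 1.35) at these steps.

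Segments of 10 kb, tested with no limit on enrichment, placed these changes more closely. Of the 30 segments, 7 overlap the box by over 1 kb. The study picked the box for its fall. Calls in these segments, and counts set against the genome here and below, are therefore partly set by that choice and are descriptions. At *T* = 2d, 3 of the 30 segments were lower, where 1.44% of the 253685 segments of the genome were, and all 3 lay in the box or across its left end. They started at 108960001 (44 to 18 tags), 108990001 (30 to 8) and 109020001 (69 to 36). None of the 3 passed a Benjamini-Hochberg limit of 0.05 over the genome (adjusted *P* = 0.107, 0.0562 and 0.123). At *T* = 4d, 5 segments were lower (3.42%), again all in the box or across its left end, and 1 was higher (1.82%). The segment from 109020001 had fallen to 14 tags (ratio 0.203). That from 109000001, most of which lies in the stretch without tags, had gone from 27 to 2 (0.0741).

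At *T* = 6d, 6 segments were lower with the Upstate-type antibody (5.19%). Of these, 4 were in the box or across its left end, and 2 were neighbours in the left part of block 2, at 109040001 (91 to 51 tags, ratio 0.560) and 109050001 (83 to 39, 0.470). The next segment of that block, at 109060001, went from 154 to 141 tags. The segment at 108990001, which had 30, 8 and 12 tags at *T* = 0, 2d and 4d, held 21 at *T* = 6d and was not called. Another 2 segments were higher (3.84%), both in the left part of block 3. That at 109130001 held 82, 117, 133 and 135 tags over the time course (ratio 1.65 at *T* = 6d, adjusted *P* = 0.0112), and that at 109150001 held 66, 89, 81 and 102 (1.55, adjusted *P* = 0.0825). In the right part of the same block the segment at 109180001 held 335, 367, 318 and 284.

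With lot 58206, 3 segments were lower at *T* = 6d (3.33%), namely those at 109020001 (112 to 28 tags), 109050001 (55 to 21) and 109080001 (65 to 25), the last at the right end of block 2. One was higher (2.59%), that at 109030001 with the spike (94 to 156, ratio 1.66, adjusted *P* = 0.00838). With lot 638466, 9 were lower (3.39%) and 0 higher, where 5505 of the 253685 segments of the genome were higher. Those at 108960001, 109000001 and 109020001 lay in the box or across its left end. The one at 109030001 lay across its right end. The others, at 109050001, 109060001, 109080001, 109130001 and 109140001, lay right of the box. In all, 2 segments were lower at *T* = 6d with all 3 antibodies, that at 109020001 with peak 4 and that at 109050001 in block 2. The share of such segments over the genome is not given here. The segment at 109130001 rose with the Upstate-type antibody and went from 97 to 58 with lot 638466, where it was called lower (0.598, exact *P* = 0.00217), and from 57 to 85 with lot 58206, which was not called.

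**Figure D4:**
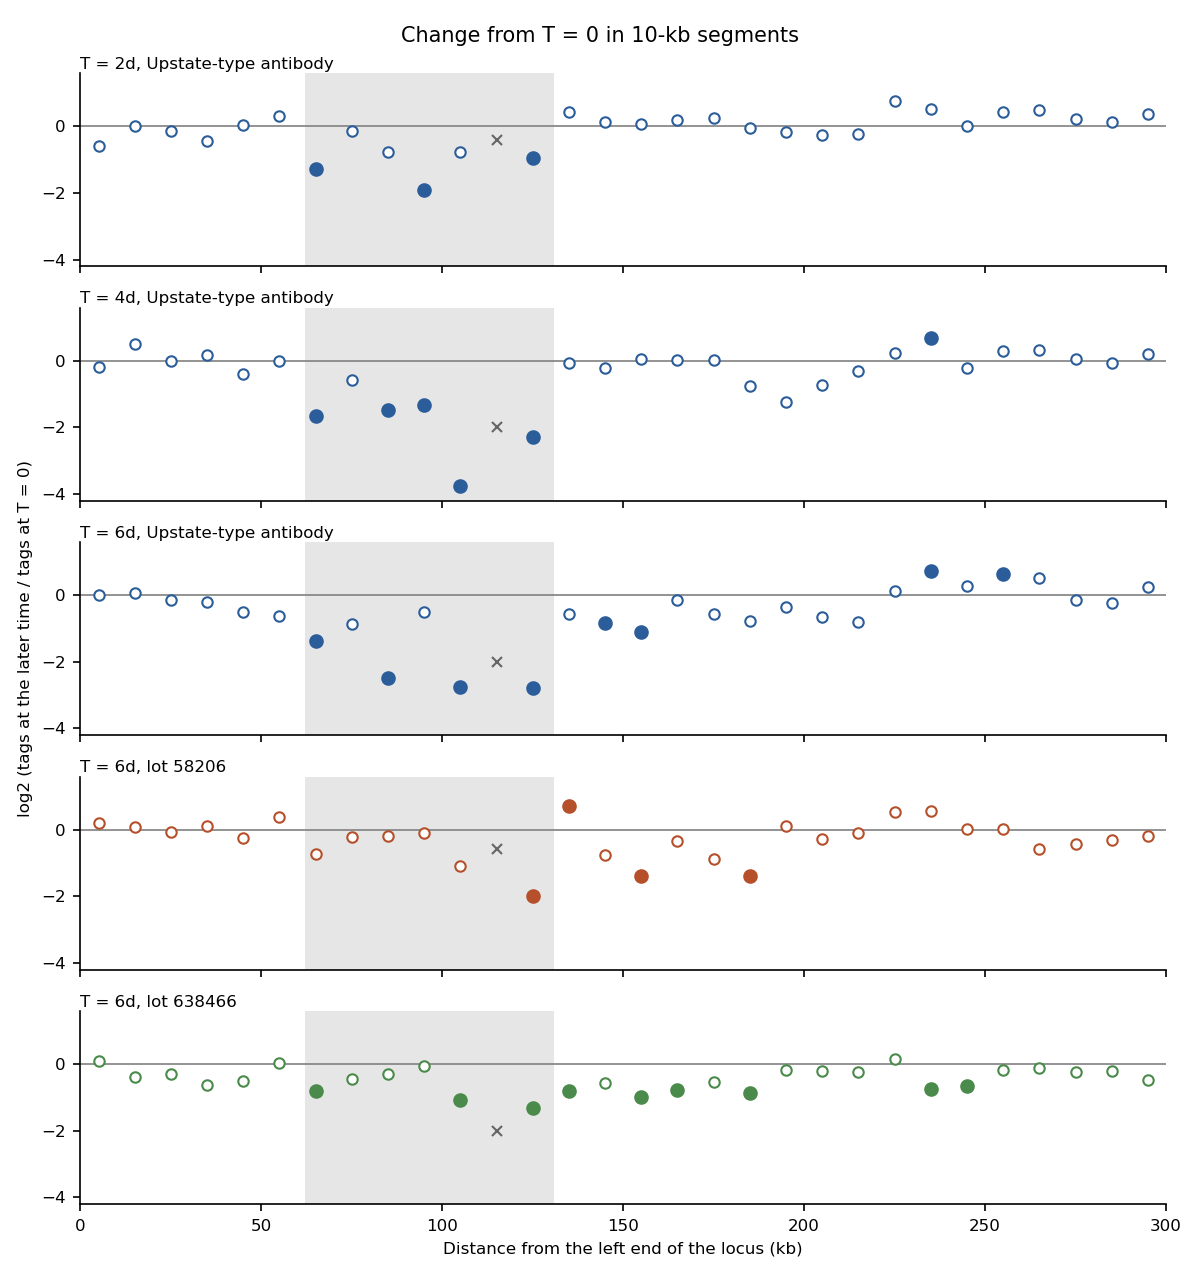
Change from *T* = 0 in 10-kb segments across the locus, as log2 of the ratio of tags against the distance from the left end of the locus in kb, with the box shaded. Filled points passed *P* below 0.01 and 1.5-fold, open points did not, and crosses are segments with under 10 tags at *T* = 0. With the Upstate-type antibody, filled points under 0 lie in the box or across its left end at *T* = 2d and 4d. At *T* = 6d filled points under 0 also lie right of the box. The farthest right starts at 109050001 with the Upstate-type antibody, at 109080001 with lot 58206 and at 109140001 with lot 638466.

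Lot 58206 had a spike at the left end of each of the 3 blocks, where the Upstate-type antibody was low. These places were chosen after their values were seen, so they are given with no test. The 500-bp bin with most tags of this lot within 10 kb of the left end of a block lay 0.25 kb to the left of that end for block 1, 0.75 kb to the left for block 2 and 3.75 kb to the right for block 3. In the 2 kb around these bins lot 58206 held 23 tags at *T* = 0 and 43 at *T* = 6d for block 1, 42 and 91 for block 2, and 70 and 120 for block 3. It was higher at *T* = 6d at all 3. Rises were common with this lot, since 6562 of the 31841 peaks of the genome chosen on its libraries were called higher at *T* = 6d and 1993 lower. Lot 638466 held 14 and 10, 27 and 12, and 14 and 22 in the same order, with no common direction.

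The 4 Upstate-type libraries together held 6, 11 and 29 tags in these 2 kb, and 176, 222 and 257 in the next 5 kb to the right, against 30, 38 and 54 in the 5 kb to the left. The spike thus stood where the broad signal of the other antibody began. Peak 4 in the box also had a high level with lot 58206 at *T* = 0 (48 tags in 2 kb), but there the Upstate-type antibody had 22 tags and all 3 antibodies fell.

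**Figure D5:**
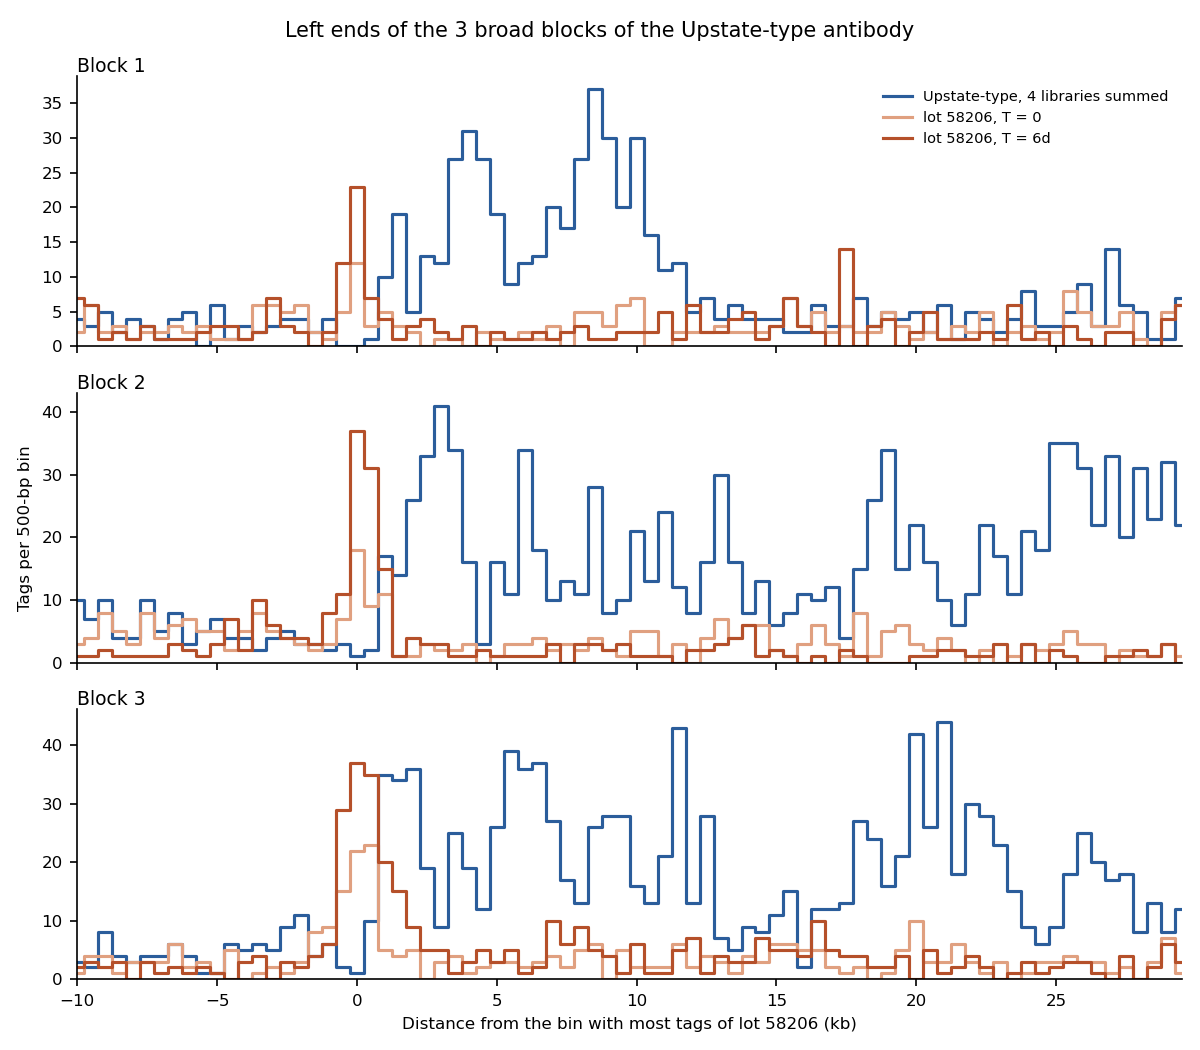
Tags per 500-bp bin against the distance in kb from the bin with most tags of lot 58206 near the left end of each block, for lot 58206 at *T* = 0 and *T* = 6d and for the 4 Upstate-type libraries summed. In each panel the lot 58206 spike is taller at *T* = 6d, and the Upstate-type signal starts to its right.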

How the data were processed

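H3K9me3 ChIP-seq tags were analysed in 8 libraries of *Setdb1 tm1c/tm2* ES cells, grouped as the labels give time and antibody. The authors mapped tags uniquely with at most 1 mismatch, equalised the libraries of each antibody, extended tags to 300 bp and deposited mm9 intervals; how tags were picked is not given in the sources used here. No start occurred more than once in a library, so the deposited files hold no tags repeated at a position. No file holds values per region, and 0 such columns were left out.

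Tags were placed by interval midpoint with scipy 1.17.1, pandas 2.3.3 and numpy 2.4.6 in Python 3.11.15. Regions were compared by two-sided Fisher's exact tests on tags inside and outside, called where *P* was below 0.01 and the change above 1.5-fold, as in the study, and adjusted (Benjamini-Hochberg) over all peaks or segments of the genome, or over the tests named. *T* = 6d and *T* = 0 were also compared with limma 3.58.1 in R 4.3.3 (lmFit, eBayes with trend). Its antibody term is a block, since deviations from the time point means correlated within the Upstate-type antibody (0.882), lot 58206 (0.887) and lot 638466 (0.483). On simulated data for the 20952 peaks, with 200 lowered 3-fold, Fisher's exact test on the Upstate-type antibody at *T* = 6d called 116 (58%) and limma 156 (78%), with 36 and 0 unchanged peaks called. For limma the simulated tags were Poisson draws around the mean of *T* = 0 and *T* = 6d of each antibody, with counting error only. With 1 library for each antibody and time, neither set of counts gives an error rate for the real libraries. Figures were drawn with matplotlib 3.10.9.

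All peaks of the locus are named, with the window of most pooled tags in each wide one. The locus and these tests were chosen with earlier results of these data known. Other windows, limits, joins, libraries for choosing peaks, scalings, pseudocounts and models were tried. Peaks chosen on single antibodies over all times, and segments, were added after seeing the data. Gene limits and sequences in mm9 were not used here, and coordinates were not converted between builds.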

Additional observations from a re-analysis of the deposited data

Results flagged for a closer look

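Whether the change from *T* = 0 to *T* = 6d differed between antibodies was tested in the 6 peaks and 3 parts (27 two-sided Fisher's exact tests, Benjamini-Hochberg over them), and 8 differences passed 0.05. In the box, which the study picked for its fall, the ratio with the Upstate-type antibody (0.308) was 0.524 times that with lot 58206 (0.587). It was 0.475 times that with lot 638466 (0.648). The study showed the fall of the box over a time course that only the Upstate-type antibody covers here. That choice favours a deeper fall with this antibody. These differences in the box, though counted among the 8, are therefore descriptions and no independent evidence. To the right of the box the ratio with the Upstate-type antibody was 1.28 times that with lot 638466 (adjusted *P* = 1.93e-05), and that with lot 58206 was 1.30 times it (adjusted *P* = 1.01e-04). To the left of the box the ratio with lot 58206 was 1.32 times that with lot 638466 (adjusted *P* = 0.0205). In peak 6 the Upstate-type antibody had 1.36 times the ratio of lot 638466 (adjusted *P* = 1.24e-04) and lot 58206 had 1.39 times it (adjusted *P* = 8.13e-04), and in peak 5 lot 58206 had 1.47 times it (adjusted *P* = 0.00146). Of the 8, 6 involve the lower ratio of lot 638466 outside the narrow peaks, beside a genome median of 0.794 for its peaks. Each ratio rests on 1 library per time, so differences between antibodies and between single libraries cannot be told apart.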

How the results depend on the processing

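The ratios to *T* = 0 in the 3 parts kept their side of the requirement in all 45 alternatives (background scaling, windows over the limit only, any base of the tag). In 3 of them, none called, a ratio crossed 1: at *T* = 2d left of the box from 0.991 to 1.08 with background scaling and 1.08 with windows over the limit, and right of the box with lot 58206 from 0.956 to 1.02 with windows over the limit. Of 15 differences between parts, 14 kept their side of the threshold with windows over the limit only. The box against the right part with lot 638466 became 0.497 and crossed it. In the box those windows are mainly peaks 2, 3 and 4, which reached the limit mainly through *T* = 0, so this filter favours a lower ratio. Differences that involve the box remain descriptions. Counts of narrow peaks depended on how peaks were drawn. The 6 peaks of the locus became 12 with 1-kb windows, 3 with 5-kb windows, 8 with a limit of 1.5 and 7 with a limit of 3. They were 10 with only neighbouring windows joined and 6 with the grid moved. Chosen on *T* = 0 of the Abcam lots or of the Upstate-type antibody they were 16 and 11. Chosen on all libraries of the Upstate-type antibody, lot 58206 or lot 638466 they were 7, 16 and 15. Counts of lower peaks below are out of these numbers. Peaks lower at *T* = 2d with the Upstate-type antibody were 1 with 1-kb windows or with the grid moved by 1 kb. They were also 1 with a limit of 1.5 or with peaks chosen on lot 638466. They were 3 with peaks chosen on *T* = 0 of the Upstate-type antibody (3917 of 67931 over the genome), a choice that favours a fall. At *T* = 4d they were 0 with 5-kb windows or a limit of 3, and 1 with the moved grid. With peaks chosen on lot 638466 they were 5 (1624 of 13627 over the genome). At *T* = 6d they were 0 with 5-kb windows or a limit of 3. With only neighbouring windows joined they were 4 (3295 of 27067 over the genome). With peaks chosen on *T* = 0 of the Upstate-type antibody they were also 4 (10672 of 67931). With lot 58206 they were 0 with 5-kb windows and 2 with 1-kb windows or the moved grid. They were also 2 with peaks chosen on all Upstate-type libraries or on lot 638466. With neighbouring windows only they were 3 (2439 of 27067 over the genome). They were also 3 with peaks chosen on *T* = 0 of the Abcam lots (4485 of 36972) or of the Upstate-type antibody (4885 of 67931). With lot 638466 they were 5 with 1-kb windows (3444 of 44840 over the genome). They were 1 with 5-kb windows (1143 of 8484) or a limit of 1.5 (3669 of 51801). With 5-kb windows or a limit of 3 the narrow peaks of the box were not among the peaks tested. Of the 15 segments of 20 kb, 1 was lower at *T* = 2d (3015 of 127096 over the genome). With lot 638466, 5 of these 15 were lower (4585 of 127096). Of the 58 segments of 5 kb, 7 were lower with lot 58206 (10027 of 505161). By limma the count of 3 became 1 with a pseudocount of 2 or peaks chosen on lot 58206, 0 with 5-kb windows or a limit of 3, 0 without the replicate block (the antibody term), and between 0 and 1 when each antibody was left out. The cause of these changes was not tested.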
